A study of Bos taurus with 2 samples.

Results

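The mir-106/mir-363 cluster (mir-106, mir-18b, mir-20b and mir-363) and the mir-106b/mir-25 cluster (mir-106b, mir-93 and mir-25) were followed in small RNA libraries of the bovine mammary gland. The members were chosen by name from the table of known bovine miRNAs, and an entry on the opposite arm of the same pre-miRNA was added where one was listed. They were 7 of 283 known miRNAs and of 884 unique miRNAs in all, and each of the 7 pre-miRNAs also had an entry on its other arm. The lactation library came from the gland of 1 multiparous dairy cow, which was 6 years of age and 2 months after the start of lactation, and the non-lactation library from 1 multiparous cow, aged 4 years, that was neither lactating nor pregnant. There was 1 library per condition, so no difference has a replicate check, and the tests compare these libraries, not the conditions. Age and lactation cannot be told apart in this design.

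The 2 clusters are paralogs, copies of one ancestral group that also gave rise to the mir-17/mir-92 cluster. A miRNA recognises its target mRNAs mainly through its seed, bases 2 to 8 from its 5′ end, so paralogs with one seed are expected to share many targets. In human cells mir-106b and mir-93 repress the cell cycle inhibitor CDKN1A and mir-25 represses the pro-apoptotic gene BCL2L11, while mir-20b has been tied to HIF1A and VEGFA in human breast cancer cells. Mammary epithelium secretes milk during lactation. In the non-lactating gland the study described more stroma, connective tissue and fat, with ductal lumens mostly smaller or collapsed.

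The mature sequences are shown 5′ to 3′ as the deposited table lists them, with the seed in capitals, because the seeds decide which members of the 2 clusters can be compared with each other. The mir-106/mir-363 members come first and the mir-106b/mir-25 members after them.
mir-106-5p: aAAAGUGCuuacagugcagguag
mir-18b-5p: uAAGGUGCaucuagugcaguu
mir-20b-5p: cAAAGUGCucacagugcagguag
mir-363-3p: aAUUGCACgguauccaucugcg
mir-106b-5p: uAAAGUGCugacagugcagaua
mir-93-5p: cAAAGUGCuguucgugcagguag
mir-25-3p: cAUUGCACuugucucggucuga

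The seed AAAGUGC stood in both clusters, in mir-106 and mir-20b of the one and in mir-106b and mir-93 of the other. The seed AUUGCAC was carried by mir-363 and by mir-25, each the last member of its cluster in the 5′ to 3′ direction. The seed AAGGUGC occurred in mir-18b alone among the members. The listed coordinates, on the bovine build BTA 4.0, placed mir-106 (start 181658, end 181738), mir-18b (181499 to 181573), mir-20b (181264 to 181332) and mir-363 (180833 to 180906) on the minus strand of the unplaced contig Un00453, within 906 bp. They placed mir-106b (38455572 to 38455651), mir-93 (38455775 to 38455851) and mir-25 (38455975 to 38456058) on the plus strand of chromosome 25, within 487 bp. In the RefSeq annotation of another bovine assembly, ARS-UCD2.0, all 7 were found by name, mir-106 as MIR106A. There MIR106B, MIR93 and MIR25 lie inside MCM7, a gene of the helicase that licenses DNA replication, and the mir-106/mir-363 members lie in no other gene.

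The close resemblance of some sequences limits how surely reads can be assigned. Substitutions are written with the member's base first and positions counted from 1 at the 5′ end. The sequences below, from mir-17/mir-92, are near-identical to members or, for mir-92, share the seed of mir-25.
mir-17-5p: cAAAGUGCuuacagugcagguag
mir-18a-5p: uAAGGUGCaucuagugcagau
mir-92-3p: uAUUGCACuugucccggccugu
From mir-106 to mir-17 the one difference was A1C, from mir-20b to mir-17 it was C10U, and from mir-18b to mir-18a it was U20A. mir-25 differed from mir-92 at C1U, U14C, U18C and A22U, and mir-106 differed from its paralog mir-106b at A1U, U10G and G20A. Counts of mir-106, mir-20b and mir-18b are therefore uncertain to the extent that reads with a sequencing or end variation were divided between near-identical entries.

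The 7 members spanned a wide range of levels. Levels are RPM, the most abundant sequence of each miRNA counted per 1000000 clean reads of its library. Levels are given with exact Poisson 95% intervals. All intervals here treat reads as independent counts and leave out variation between animals and libraries. PCR reads are not independent molecules, so the intervals and p-values may understate even the counting error. mir-25, at 2314 RPM (2287 to 2341) in lactation and 6761 RPM (6721 to 6801) in non-lactation, was the most abundant member in both and ranked 24 and 13 among the known miRNAs. mir-93 had 219 RPM (211 to 228) in lactation and 278 RPM (270 to 286) in non-lactation, and mir-106b had 145 RPM (138 to 151) and 153 RPM (147 to 159) in the same order. The mir-106/mir-363 members lay below every mir-106b/mir-25 member in each library. mir-363 had 116 RPM (110 to 123) in lactation and 35.9 RPM (33.1 to 39.0) in non-lactation. mir-20b had 65.0 RPM (60.5 to 69.8) in lactation and 5.26 RPM (4.20 to 6.51) in non-lactation. mir-106 had 29.8 RPM (26.8 to 33.1) in lactation and 3.38 RPM (2.54 to 4.41) in non-lactation. mir-18b was listed with 13 reads, or 1.09 RPM (0.579 to 1.86), in lactation and with 0 reads in non-lactation, where the interval reaches 0.231 RPM. The floor of 3 reads used below for fold bounds is 0.188 RPM there. The order of the members was one and the same in both libraries, and only the intervals of mir-20b and mir-106 in non-lactation overlapped between neighbours. Counts of different sequences also depend on how well each is ligated and amplified, which was not measured.

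**Figure D1:**
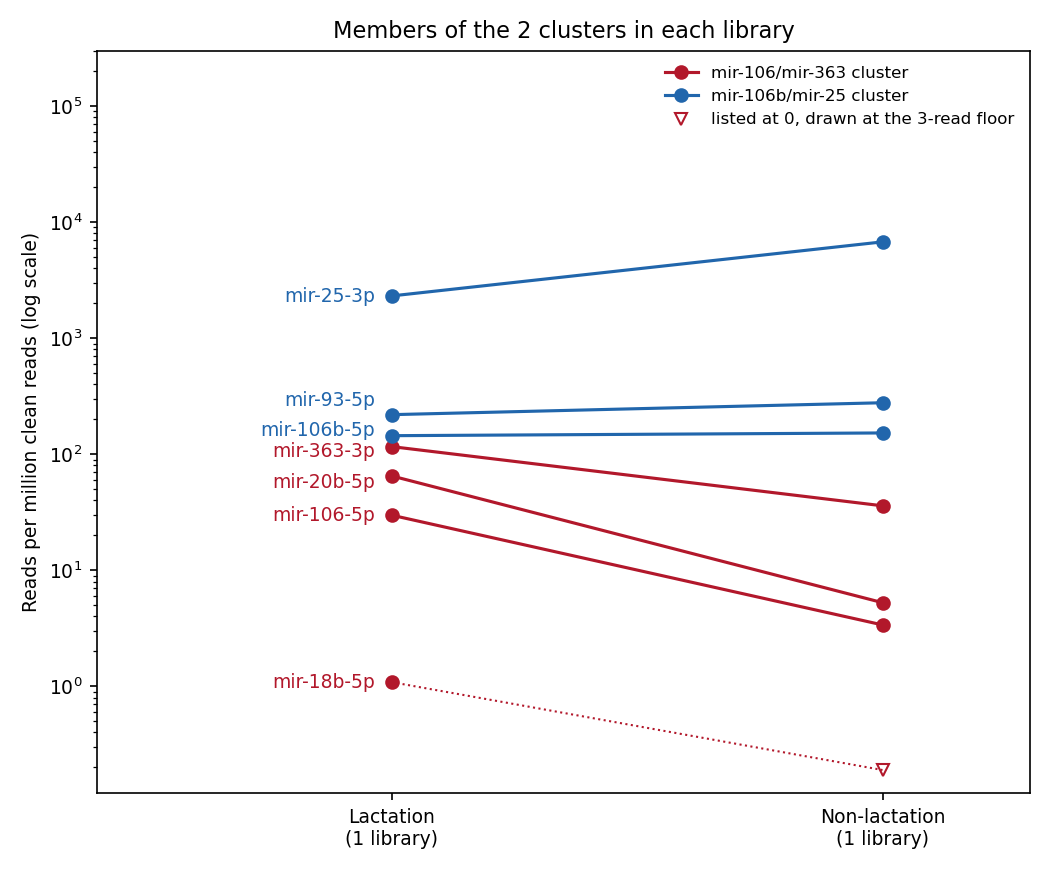
RPM on a log axis of the 7 members in the lactation library (left) and in the non-lactation library (right), a line joining the 2 libraries for each miRNA. All mir-106/mir-363 members (red) stand higher in lactation, with mir-18b at 1.09 RPM against 0 (open triangle), whereas mir-25 (blue) stands at 2314 RPM in lactation against 6761 RPM in non-lactation.

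By the counts of the most abundant sequence, all 4 mir-106/mir-363 members were higher in the lactation library and none of the mir-106b/mir-25 members was. mir-20b, with 778 reads in lactation and 84 in non-lactation, was 12.4-fold higher (95% interval 9.86 to 15.7). mir-106, with 357 reads in lactation and 54 in non-lactation, was 8.82-fold higher (6.61 to 12). mir-363, with 1392 reads in lactation and 574 in non-lactation, was 3.24-fold higher (2.93 to 3.57). mir-18b was 5.78-fold higher when its listed 0 was set to the 3-read floor, a bound that leaves out the counting error of its 13 reads. In two-sided Fisher's exact test with Bonferroni adjustment over 883 miRNAs, which took its listed 0 as 0 reads, the adjusted p was 0.0144. The lowest listed count above 0 was 3 reads in either library, so a listed 0 may hide fewer reads. Another entry, with 13 reads in lactation and 3 in non-lactation, did not pass, so the call of mir-18b depends on that 0. The other 3 members passed with adjusted p of 2.48e-186 for mir-20b, 4.72e-74 for mir-106 and 1.99e-135 for mir-363 in the same exact test.

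In the mir-106b/mir-25 cluster the members did not move alike. mir-25, with 27684 reads in lactation and 107961 in non-lactation, fell 2.92-fold (ratio 0.342, 95% interval 0.338 to 0.347) and passed the test. mir-93, with 2624 reads in lactation and 4436 in non-lactation, fell 1.27-fold (ratio 0.789, 0.752 to 0.829, adjusted p = 3.23e-19, Fisher's exact test). mir-106b, with 1729 reads in lactation and 2436 in non-lactation, had a ratio of 0.947 (0.890 to 1.01) and did not pass (unadjusted p = 0.085, exact test). Its direction depended on the processing. It passed as lower with TMM scaling (ratio 0.790), with DESeq2 size factors (0.779) and without scaling (0.710), and as higher when all isomiRs were counted (1.09, 1.05 to 1.13, adjusted p = 0.0327, exact test).

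Over all 883 miRNAs tested, 17.4% passed as higher in lactation and 10.9% as lower, and against these shares 4 of 7 members were higher, 2 were lower and 1 was not called. Of the 273 miRNAs whose reads summed to 100 or more, 28.9% stood 2-fold or more above their non-lactation level and 22.7% stood 2-fold or more below it. Of the 6 members with that many reads, all but mir-18b, 3 stood that far above and 1 that far below. The median log2 ratio was 2.84 for the 4 mir-106/mir-363 members, with mir-18b at its bound, and -0.34 for the 3 mir-106b/mir-25 members, beside 0.43 for the 739 miRNAs with a ratio. The call of mir-18b rests on 13 reads against a listed 0. It was lost with TMM scaling, with DESeq2 size factors and without scaling (adjusted p = 0.0529, 0.0582 and 0.216, Fisher's exact test). By contrast, mir-20b, mir-106 and mir-363 passed under each of these scalings.

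**Figure D2:**
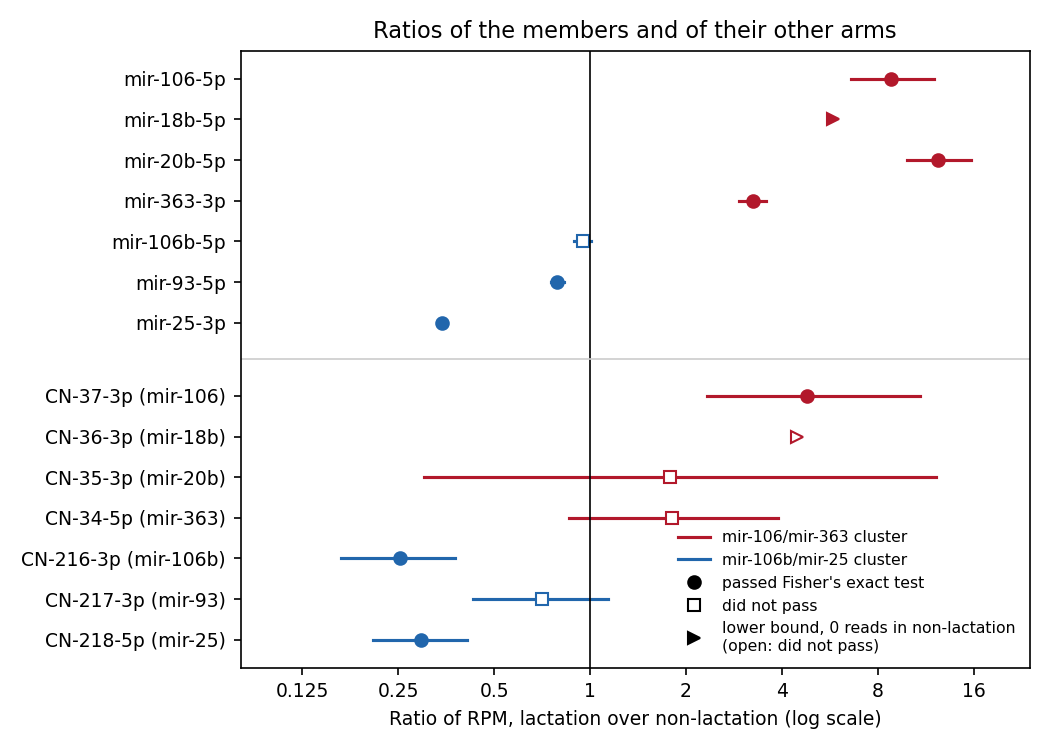
Ratios of RPM, lactation over non-lactation, with exact 95% intervals on a log axis, for the 7 members (above the grey line) and for the 7 other arms (below it). Members of mir-106/mir-363 (red) lie right of 1, from 3.24 to 12.4, and those of mir-106b/mir-25 (blue) lie left of 1, from 0.342 to 0.947. The interval of mir-106b (0.890 to 1.01) holds 1 and it did not pass. Triangles are lower bounds.

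Summed over members, mir-106/mir-363 had 212 RPM in the lactation library against 44.6 RPM in the non-lactation library, and mir-106b/mir-25 had 2678 RPM in lactation against 7191 RPM in non-lactation. The ratio of mir-106/mir-363 to mir-106b/mir-25 reads was thus 12.8 times as high in lactation (95% interval 11.8 to 13.9), a value that does not depend on the library totals, and it passed Fisher's exact test. It was 8.13 (7.74 to 8.53) with all isomiRs and 5.63 (5.14 to 6.18) without mir-25, the most abundant member. With neither mir-25 nor mir-363 it was 13.1 (11 to 15.8). The composition of each cluster, counted over its listed members only, also differed between the libraries. mir-363 made up 54.8% (52.8 to 56.8, exact Clopper-Pearson interval) of the mir-106/mir-363 reads in lactation and 80.6% (77.5 to 83.5) in non-lactation, while mir-20b made up 30.6% (28.8 to 32.5) and 11.8% (9.52 to 14.4) in the same order. mir-25 made up 86.4% (86.0 to 86.8) of the mir-106b/mir-25 reads in lactation and 94.0% (93.9 to 94.2) in non-lactation.

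Paralogs with one and the same seed were compared in 5 pairs, with the ratio of their reads in lactation divided by that in non-lactation. mir-20b over mir-93 gave 15.7 (12.4 to 19.9) and mir-20b over mir-106b gave 13.05 (10.3 to 16.7). mir-106 over mir-93 gave 11.2 (8.34 to 15.2) and mir-106 over mir-106b gave 9.31 (6.93 to 12.7). For the AUUGCAC seed, mir-363 over mir-25 gave 9.46 (8.57 to 10.5). All 5 pairs passed Fisher's exact test with Bonferroni adjustment over the pairs. With all isomiRs they passed as well, with values from 4.96 for mir-106 over mir-106b to 12.3 for mir-20b over mir-93. In both clusters the AAAGUGC members stood higher in lactation relative to the AUUGCAC member, by 3.39 times (2.76 to 4.18) in mir-106/mir-363 and by 2.47 times (2.37 to 2.57) in mir-106b/mir-25, a comparison added after the values were seen. The direction was the same in mir-17/mir-92. Its AAAGUGC reads were 5203 in lactation and 2310 in non-lactation, and its AUUGCAC reads 45125 and 63315 in the same order.

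The listed reads of each seed were then divided by source, with every entry of the tables that carried the seed. The AAAGUGC family, 8 entries, had 894 RPM in lactation and 584 RPM in non-lactation, 1.53-fold higher (1.49 to 1.58). mir-106 and mir-20b supplied 10.6% of its reads (10.03 to 11.2) in lactation and 1.48% (1.25 to 1.75) in non-lactation. mir-106b and mir-93 supplied 40.7% (39.8 to 41.6) in lactation and 73.7% (72.8 to 74.6) in non-lactation. The remainder was nearly all from mir-17 and mir-20a of mir-17/mir-92, with 48.6% (47.7 to 49.6) in lactation and 24.8% (23.9 to 25.7) in non-lactation. In the AUUGCAC family, 7 entries, the total was 6275 RPM in lactation and 10827 RPM in non-lactation, a ratio of 0.580 (0.575 to 0.585). mir-25 supplied 36.9% (36.5 to 37.2) of it in lactation and 62.4% (62.2 to 62.7) in non-lactation, mir-92 supplied 60.1% (59.7 to 60.5) and 36.6% (36.4 to 36.8), and mir-363 supplied 1.85% (1.76 to 1.95) and 0.332% (0.305 to 0.360), each with lactation first. With all isomiRs the mir-363 share was 3.52% (3.41 to 3.63) in lactation and 0.836% (0.8003 to 0.873) in non-lactation, and the share of mir-106 and mir-20b in their family was 10.9% (10.5 to 11.3) in lactation and 2.20% (2.00 to 2.42) in non-lactation. In both seeds mir-106b/mir-25 held the largest share in non-lactation and mir-17/mir-92 the largest in lactation. Of the AAGGUGC reads, mir-18b held 13 of 39 in lactation (33.3%, 19.1 to 50.2) and 0 of 17 in non-lactation, the rest being mir-18a. With all isomiRs its share in lactation was 16.05% (8.83 to 25.9).

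**Figure D3:**
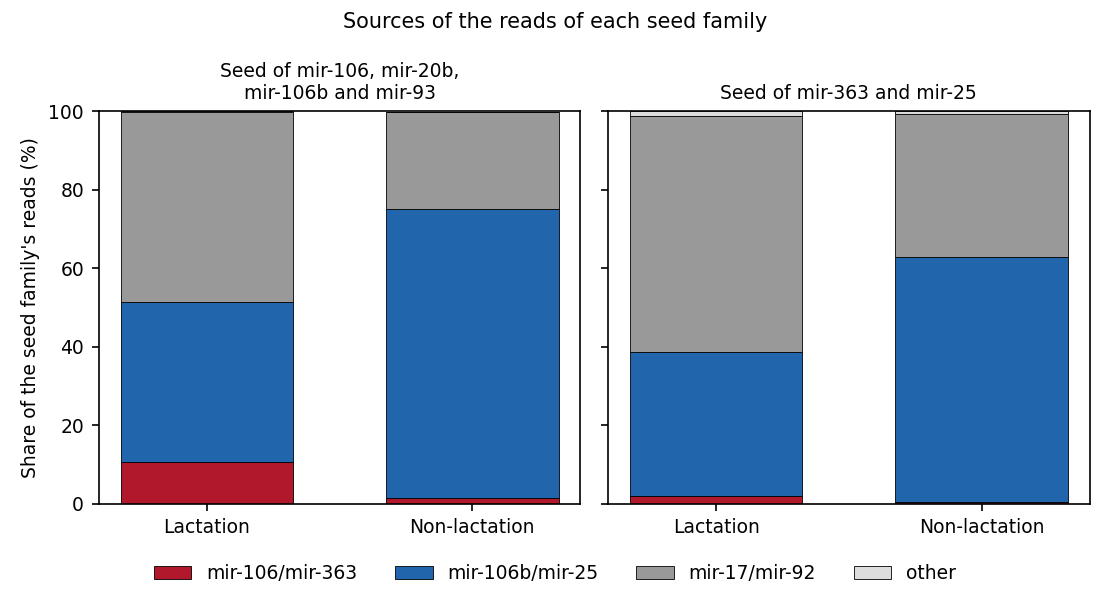
Share in percent of the reads of each seed family that came from mir-106/mir-363 (red), mir-106b/mir-25 (blue), mir-17/mir-92 (grey) and other entries (light grey), with lactation left of non-lactation in each panel. For the seed of mir-106, mir-20b, mir-106b and mir-93 the mir-106b/mir-25 share is 40.7% in lactation against 73.7% in non-lactation, and for that of mir-363 and mir-25 it is 36.9% against 62.4%.

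The third paralog cluster, mir-17/mir-92, stood between the other 2 at both seeds that all 3 share, a comparison likewise added after the values were seen. Its mir-17-5p, with 277 RPM in lactation and 89.7 RPM in non-lactation, was 3.09-fold higher (2.90 to 3.29) and its mir-20a-5p was 2.87-fold higher (2.65 to 3.12), while mir-92-3p, with 3771 RPM in lactation and 3965 RPM in non-lactation, had a ratio of 0.951 (0.940 to 0.963). Relative to the mir-17/mir-92 entries of the same seed, the AAAGUGC members of mir-106/mir-363 were 3.65 times as high in lactation as in non-lactation (3.04 to 4.42) and mir-363 was 3.40 times as high (3.08 to 3.76). The corresponding values of mir-106b/mir-25 were 0.281 (0.264 to 0.299) for the AAAGUGC members and 0.360 (0.353 to 0.366) for mir-25. In the ARS-UCD2.0 annotation MIR92A-2 and MIR19B-2, copies of 2 miRNAs of mir-17/mir-92, lie among the mir-106/mir-363 members. The deposited coordinates place mir-92 and mir-19b on chromosome 12. Any of their reads that came from the copies in mir-106/mir-363 were counted there and cannot be told apart. The sums, shares and contrasts of mir-106/mir-363 are therefore those of its listed members and leave these copies out.

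The other entries on contig Un00453 lay at least 258755 bp from mir-106/mir-363. Of these 9 entries, 1 was higher, mir-424-5p at 1.99-fold (1.82 to 2.18), 2 were lower, PC-503-5p (ratio 0.297, 0.245 to 0.358) and CN-49-3p (0.519, 0.398 to 0.671), and 6 did not pass, beside 17.4% higher and 10.9% lower among all miRNAs. The prefix PC marks entries conserved in other mammals and CN marks candidates predicted from the genome. No other entry lay within 10 kb of mir-106b/mir-25. PC-363-1-3p, an unplaced entry that differs from mir-363 at C21U and G22A, had 8 reads in lactation and 0 in non-lactation and did not pass.

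The other arm of each pre-miRNA was listed as a CN entry at identical coordinates. A pre-miRNA is a hairpin whose stem gives a mature miRNA from each side, usually with one arm far more abundant. The 3 hairpins below show a member of each cluster with the AAAGUGC seed and the one with the largest count, with both listed arms in capitals.
mir-20b: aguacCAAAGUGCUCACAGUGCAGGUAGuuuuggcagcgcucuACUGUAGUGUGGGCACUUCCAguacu
mir-106b: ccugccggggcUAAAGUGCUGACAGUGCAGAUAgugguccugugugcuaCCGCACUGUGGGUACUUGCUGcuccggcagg
mir-25: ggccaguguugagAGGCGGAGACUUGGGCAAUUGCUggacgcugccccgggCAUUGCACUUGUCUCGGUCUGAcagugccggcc

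The member lies on the 5p side of the mir-20b and mir-106b hairpins and on the 3p side of mir-25. In mir-106b/mir-25 the other arms were lower for 2 hairpins. CN-216-3p, from mir-106b, had 30 reads in lactation and 158 in non-lactation, a ratio of 0.253 (0.166 to 0.376, adjusted p = 5.04e-12, Fisher's exact test). CN-218-5p, from mir-25, had 44 reads in lactation and 199 in non-lactation, a ratio of 0.295 (0.208 to 0.411, adjusted p = 3.04e-13, exact test), close to the 0.342 of its partner. CN-217-3p, from mir-93, had 28 reads in lactation and 53 in non-lactation (ratio 0.705, 0.429 to 1.13) and did not pass. In mir-106/mir-363 only CN-37-3p, from mir-106, passed, with 36 reads in lactation and 10 in non-lactation and a 4.80-fold higher level (2.34 to 10.9, adjusted p = 0.00127, exact test), a call lost without scaling (adjusted p = 0.138, exact test). With all isomiRs CN-37-3p was 10.01-fold higher and CN-216-3p had a ratio of 0.550, and both passed. CN-36-3p, from mir-18b, had 10 reads in lactation and 0 in non-lactation, 4.45-fold higher in value against the 3-read floor, and did not pass (adjusted p = 0.184, exact test). CN-34-5p, from mir-363, with 19 reads in lactation and 14 in non-lactation, and CN-35-3p, from mir-20b, with 4 in lactation and 3 in non-lactation, did not pass either. In all, 1 of the 7 other arms was higher and 2 were lower, against the 17.4% and 10.9% of all miRNAs.

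The balance of the arms was compared within each hairpin, where library totals cancel, for the 6 hairpins with reads in both libraries. It passed for mir-106b alone. Hairpins outside the 2 clusters were not tested, so how often such a difference passes among all hairpins is not known. There the other arm held 1.71% of the reads of both arms (1.15 to 2.43) in lactation and 6.09% (5.20 to 7.08) in non-lactation, an odds ratio of 0.268 (0.174 to 0.399, adjusted p = 1.03e-12, Fisher's exact test). With all isomiRs the shares were 2.30% in lactation and 4.44% in non-lactation (odds ratio 0.505, 0.395 to 0.642, adjusted p = 2.5e-08, exact test). The hairpins of mir-93 and mir-25 did not pass, with odds ratios of 0.893 (0.542 to 1.44) for mir-93 and 0.862 (0.607 to 1.20) for mir-25. For the mir-106/mir-363 hairpins the intervals were wide, at 0.247 to 1.31 for mir-106, 0.0240 to 1.00 for mir-20b and 0.264 to 1.22 for mir-363, and each held both 1 and the 0.268 of mir-106b. With all isomiRs they were 1.03 to 3.57 for mir-106 (odds ratio 1.85, adjusted p = 0.221, exact test), 0.0321 to 1.32 for mir-20b and 0.616 to 1.87 for mir-363, and none passed. Whether the hairpins differ from each other in this was not tested. For mir-18b, with reads in lactation alone, the other arm held 10 of 23 (43.5%, 23.2 to 65.5).

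**Figure D4:**
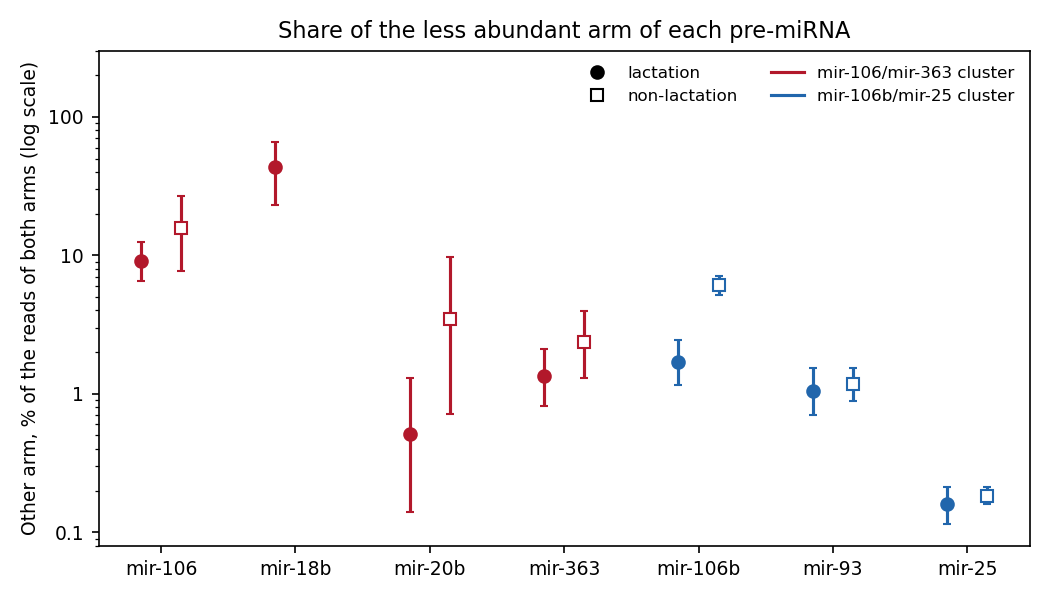
Share of the less abundant arm in the reads of both arms of each pre-miRNA, in percent on a log axis with exact 95% intervals, with lactation (filled circles) left of non-lactation (open squares). The intervals of mir-106b are apart, at 1.71% in lactation against 6.09% in non-lactation, and mir-18b has no reads in non-lactation.

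The most abundant sequence did not stand for the same share of a member's isomiRs, its length and sequence variants, in the 2 libraries. In 3 mir-106/mir-363 members that share was larger in lactation, and mir-18b, with 1 isomiR kind in lactation and no reads in non-lactation, could not be compared. It was 37.7% (34.6 to 40.9) in lactation and 23.1% (17.8 to 29.0) in non-lactation for mir-106 (adjusted p = 0.000138, Fisher's exact test over 6 members), 56.6% (53.9 to 59.2) and 42.6% (35.6 to 49.9) for mir-20b (adjusted p = 0.00183, exact test), and 38.3% (36.8 to 39.9) and 28.5% (26.6 to 30.5) for mir-363 (adjusted p = 5.73e-13, exact test). In mir-106b and mir-25 it was smaller in lactation, with 40.2% (38.8 to 41.7) in lactation and 46.2% (44.9 to 47.6) in non-lactation for mir-106b (adjusted p = 2.34e-08, exact test) and 68.2% (67.7 to 68.6) and 71.2% (71.0 to 71.4) for mir-25 (adjusted p = 2.9e-32, exact test). For mir-93, with 56.6% (55.2 to 58.0) in lactation and 54.5% (53.4 to 55.6) in non-lactation, it did not pass (adjusted p = 0.124, exact test). This comparison was not run over all miRNAs, so whether the shifts are particular to these clusters was not tested. The share was also larger in lactation for mir-17 with mir-20a (5203 of 10083 reads against 2310 of 5735). The same held for mir-92 (45125 of 57514 against 63315 of 85761), and mir-18a was nearly equal (26 of 68 against 17 of 44). The isomiR kinds of mir-363 numbered 40 in lactation and 18 in non-lactation, those of mir-20b 16 in lactation and 7 in non-lactation, and those of mir-106 22 in lactation and 12 in non-lactation. In the other cluster mir-106b had 44 kinds in lactation and 29 in non-lactation, mir-93 had 43 in lactation and 44 in non-lactation, and mir-25 had 123 in lactation and 143 in non-lactation. Counted over all isomiRs, mir-20b was 9.31-fold higher (8.02 to 10.9), mir-106 5.40-fold (4.67 to 6.25) and mir-363 2.41-fold (2.28 to 2.54), while mir-25 had a ratio of 0.358 (0.354 to 0.362) and mir-93 a ratio of 0.760 (0.733 to 0.788).

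**Figure D5:**
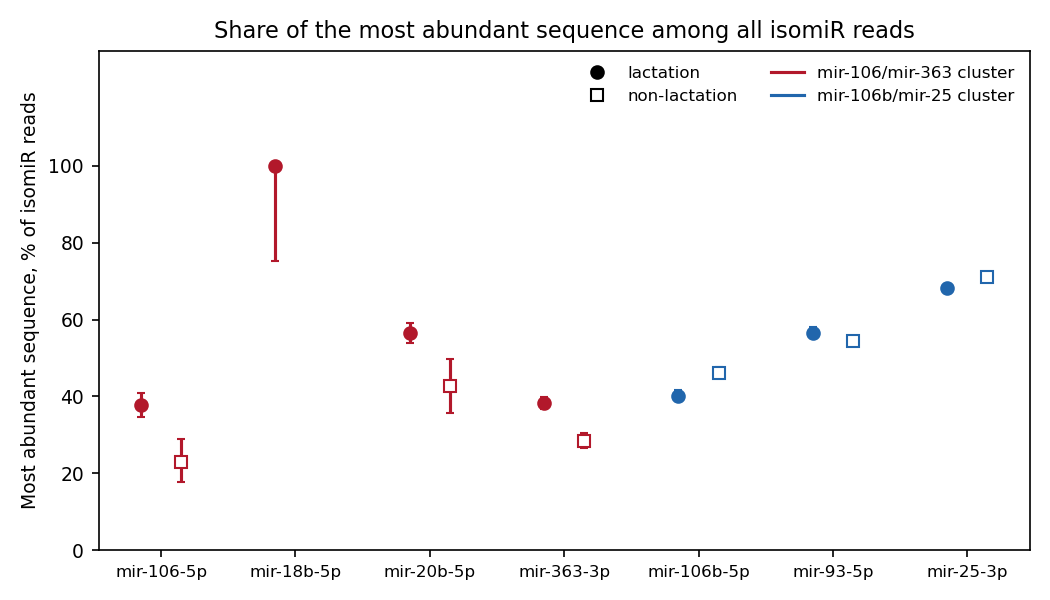
Share of the most abundant sequence in all isomiR reads of each member, in percent with exact 95% intervals, with lactation (filled circles) left of non-lactation (open squares). The share is larger in lactation for mir-106 (37.7% against 23.1%), mir-20b and mir-363 (red), and smaller for mir-106b (40.2% against 46.2%) and mir-25 (blue).

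Over all entries tested, the reads of most abundant sequences came to 5745936 for lactation and 7879028 for non-lactation. In bulk tissue, fewer cells of a type and less RNA per cell cannot be told apart. The listed markers of epithelium, all of the mir-200 family, summed to 12201 RPM in lactation and 1903 RPM in non-lactation, and 5 of 5 were higher. Outside the list, PC-205-5p (ratio 0.241) and PC-203-3p (0.265), named after other miRNAs of epithelium, were lower. Of the PC entries named after the mir-200 family, PC-429-2-3p (0.373) was lower and PC-429-1-3p did not pass. PC-141-3p (5.63), PC-200a-3p (1.79) and PC-200b-3p (3.34) were higher. The 7 markers of stroma and smooth muscle summed to 10495 RPM in lactation and 20008 RPM in non-lactation, with 2 higher and 4 lower. Endothelial markers had 487 RPM in lactation and 165 RPM in non-lactation (2 of 2 higher), erythroid markers 90.8 RPM and 32.5 RPM (2 of 3 higher, with mir-144-3p at 3 reads in lactation and 0 in non-lactation), leukocyte markers 64.8 RPM and 116 RPM (2 of 4 lower) and striated muscle markers 4480 RPM and 696 RPM (2 of 3 higher). The listed mir-200, endothelial, erythroid and muscle markers were thus, as sums, higher like mir-106/mir-363. The sums of stroma with smooth muscle and of leukocytes were lower like mir-25. Within the list of stroma and smooth muscle mir-145-5p was higher, at 1.17-fold, and so was mir-143-3p, at 2.35-fold, whereas mir-214-3p (1.73-fold in value) did not pass, and the other 4 were lower. Their part in the results was not tested.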

How the data were processed

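Small RNA of 1 lactation and 1 non-lactation mammary gland was sequenced by the authors, who filtered out other RNA classes and aligned what remained to miRBase 17.0 and the genome BTA 4.0 with ACGT101-miR. The deposited values are read counts that the authors made for the most abundant sequence and for all isomiRs of each miRNA, with the number of isomiR kinds. The labels and the study's methods name different RNA extraction kits. In the table of candidate miRNAs the headings of isomiR reads and kinds contradicted the values and were taken the other way round, and 7 entries whose isomiR sum was blank or below the most abundant sequence were left out of isomiR results. RPM used the clean reads given by the study as totals. Of 884 miRNAs, 883 had values in both libraries and were tested with two-sided Fisher's exact test, with Bonferroni adjustment and a threshold of 0.05. A listed 0 was set to 3 reads for a bound and was kept as 0 in the tests. Ratios, shares and odds ratios have exact 95% intervals, which narrow as reads increase.

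Arms were matched by identical coordinates. The named miRNAs are the members, entries at their pre-miRNAs, with their seeds or near them, and mir-17/mir-92. The members, lists and tests were chosen with earlier results of these data known. Alternatives were other scalings (listed reads, TMM, DESeq2, none), all isomiRs, Benjamini-Hochberg adjustment, fold rules of 2 and 4 with 100 summed reads, both arms summed, and other sums of the clusters. Methods were tested on simulated counts drawn as independent reads, which leave out variation between animals and libraries. Scaling factors, and no tests, came from edgeR 4.0.16 and DESeq2 1.42.0. R was version 4.3.3, and Python 3.11.15 ran scipy 1.17.1, numpy 2.4.6 and matplotlib 3.10.9. No genome sequence was used. The microarray of the study was not analysed here.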

Additional observations from a re-analysis of the deposited data

How the results depend on the processing

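No paired analysis was possible because there was 1 library per condition. With a rule of at least 4-fold and 100 summed reads, 2 members were higher and 0 lower, against 4 and 2 by Fisher's exact test. The share of all miRNAs meeting the 4-fold rule was not computed, so these counts have no background. With at least 2-fold 3 members were higher and 1 lower, beside 28.9% and 22.7% of the 273 miRNAs with that many reads. The cluster contrast of 12.8 became 11.1 with unweighted geometric means. With all isomiRs the ratio of mir-106b was 1.09 in place of 0.947, and the arm odds ratios of mir-106 (1.85), mir-363 (1.06) and mir-93 (1.02), none of which passed, changed side, while that of mir-106b passed both ways. Of 10 seed shares 8 moved outside their interval. The causes were not tested. Relative to the clean reads, TMM, DESeq2 size factors and no scaling moved the median log2 ratio of all miRNAs by -0.26, -0.28 and -0.42. Without scaling 108 miRNAs were higher and 125 lower, against 154 and 96, and Benjamini-Hochberg adjustment gave 268 and 142. Over the 4 other scalings and the clean reads mir-20b ranged from 9.26- to 12.7-fold, mir-106 from 6.61- to 9.07-fold, mir-363 from 2.43- to 3.33-fold, mir-93 from a ratio of 0.592 to 0.811 and mir-25 from 0.256 to 0.352, and each kept its call. The bound of mir-18b ranged from 4.33- to 5.94-fold over the same scalings, and its call was not kept under all of them. Depth limits mir-18b and the other arms of mir-18b, mir-20b and mir-363, with at most 33 summed reads each.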
